A study of Drosophila melanogaster with 4 samples.

Results

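The mt:CoI transcript (FBtr0100861 of gene FBgn0013674) is described here by every error listed in it, as 1 of the 9 mitochondrial transcripts with a listed error in 2 libraries of fruit fly (Drosophila melanogaster) mitochondrial RNA. All lines of this transcript in the error lists were taken, which gave 26 errors in the E423P library and 102 errors in the WT library. The E423P library came from flies that overexpressed the E423P form of the mitochondrial RNA polymerase, and the WT library from flies that overexpressed the wild-type form. Both came from mitochondria of whole adult flies aged 2 weeks. The promoter or driver of the overexpression is not given in the sources used here, nor is it stated whether the flies' own polymerase was also present. With 1 error list per genotype there is no replicate check, and each test below compares these 2 libraries, not the genotypes.

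mt:CoI encodes subunit I of cytochrome c oxidase, the last enzyme of the respiratory chain. It is the catalytic subunit, which holds the hemes of the enzyme and the site where oxygen is reduced to water. Its messenger RNA is made from the mitochondrial DNA by the mitochondrial RNA polymerase as part of a longer transcript, from which tRNAs and mRNAs are cut apart. An error in such an RNA can be a base that the polymerase misincorporated, but a listed mismatch can also come from other steps between the DNA and the sequence. The lists do not separate these sources.

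The gene lies on the plus strand of mitochondrion_genome from 1474 to 3009 in the BDGP6 annotation, a single exon of 1536 bases. It is coding from 1474 to 3006, or 511 codons, and is followed by the stop codon. The coordinates of all 9 transcripts were the same in the deposited gene table. Positions below are given along the transcript as listed. The deposited headers do not say whether they count from 0 or from 1. Of the 22 listed positions that are multiples of 3, 16 had A or T as the reference base (72.7%). Of the other listed positions, 2 of 36 (5.56%) and 4 of 42 (9.52%) had A or T. The third base of codons in fly mitochondrial genes is known to be mostly A or T. Counting from 1 puts the multiples of 3 at the third codon base, so it was used for codon positions and genome positions. This choice is an inference from the base composition, and no sequence was read.

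mt:CoI made up 16.9% of the summed length of the 9 transcripts, but it held 51.0% of the listed E423P errors (95% Wilson interval 37.7 to 64.1) and 40.0% of the listed WT errors (34.2 to 46.1). Per 1000 bases of transcript it had 16.9 listed errors in E423P and 66.4 in WT. mt:CoII and mt:CoIII encode the other mitochondrially made subunits of the same enzyme. mt:CoII had 13.1 listed errors per 1000 bases in E423P and 24.8 in WT. mt:CoIII had 7.60 in E423P and 62.1 in WT. These densities take no account of depth, and the summed coverage over all transcripts in E423P was 0.238 times that in WT. The coverage of single transcripts was not used here, so none of these values is an error rate.

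In the E423P library the 26 errors lay on 25 positions, which is 1.63% of the bases of the transcript. In the WT library the 102 errors lay on 85 positions, or 5.53% of the bases. The first and last listed positions were 124 and 1459 in E423P, against 7 and 1479 in WT. The last listed position was 77 bases from the transcript end in E423P and 57 bases from it in WT. Together the libraries listed 100 positions, and 57 of them were C bases with a C-to-T change.

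The listed errors followed the transcript unevenly, and so did the depth beside them. The transcript was divided into 6 segments of 256 bases. From the first segment to the last, E423P had 2, 5, 9, 3, 2 and 5 errors, and WT had 20, 19, 22, 8, 12 and 21. The third segment, from 513 to 768, held the most errors in both libraries. Its listed positions had a median depth of 195 in E423P and 665 in WT. The fourth segment, from 769 to 1024, had the lowest median depths, 106 in E423P and 204 in WT. It held the fewest WT errors, 8, whereas the fewest E423P errors, 2, were in the first and the fifth segments. The median E423P depths of those segments, 200.0 and 242, were above that of the third segment. Each of these 2 medians rests on 2 listed positions, at depths of 183 and 217 and of 202 and 281. Depth is given only where an error was listed, so these medians do not describe the whole segments. The part of depth in the number of listed errors was not tested. In the WT list the depth reached 619 at positions 101 and 106, dropped to 105 at position 201, and reached 790 at position 647. It was 157 at position 959, 493 at position 1041 and 559 at position 1427.

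**Figure D1:**
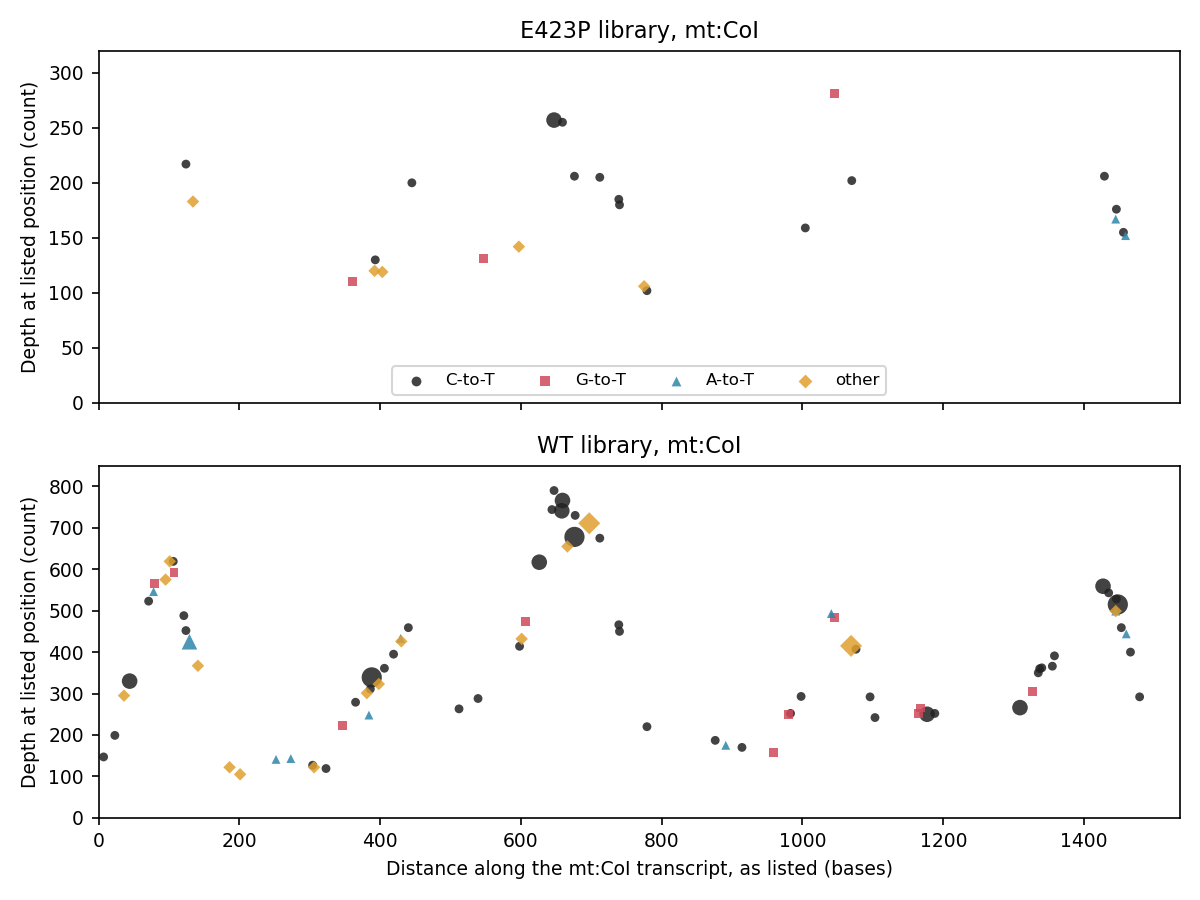
Depth at each listed mt:CoI error (y axis, count) against the distance along the transcript (x axis, bases), for the E423P library above the WT library on separate scales. Larger symbols mark changes with 2 or 3 errors. The depth at listed positions peaked near position 647 in WT, at 790, and E423P had 257 there.

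Long stretches had no listed error. In E423P the longest were 358 bases between positions 1070 and 1429, 226 bases between 134 and 361, and 224 bases between 779 and 1004. In WT the longest were 120 bases between 1188 and 1309 and 96 bases between 779 and 876. Whether these stretches were covered well enough to be searched is not stated, and the lowest depth at any listed mt:CoI position was 102 in E423P and 105 in WT.

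The depth of the libraries could be set side by side at the 10 mt:CoI positions listed in both. E423P had a depth of 217 at position 124, 257 at position 647 and 102 at position 779, against 452, 790 and 220 in WT. At these 10 positions the E423P depth was 0.304 to 0.480 times the WT depth, with a median of 0.334. Pairing each E423P position with the nearest WT position within 5 bases gave 23 pairs and a median ratio of 0.369. The lowest ratio of these pairs was 0.304, at positions 676 and 712. The highest was 0.582, for E423P position 1045 with a depth of 281 and WT position 1046 with a depth of 483. All 23 ratios were above 0.238, the ratio of the summed coverages. At 3 positions of other transcripts listed in both libraries the ratio was 0.402 to 0.898. The lowest depth at a listed E423P position was 102, so these ratios come from the deeper E423P positions, and they give no level of the transcript. The depths rose and fell together along the transcript, with a Pearson correlation of 0.800 over the 23 pairs. Neighbouring positions share reads, so this value is only a description.

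C-to-T was the most frequent change in mt:CoI in both libraries, with 16 of 26 errors in E423P (61.5%, 42.5 to 77.6) and 64 of 102 in WT (62.7%, 53.1 to 71.5). The share in E423P minus that in WT was -1.21 percentage points, smaller than the counting error of either share (Fisher's exact test, two-sided, p = 1.00). Errors at C as a whole made up 65.4% of the E423P list and 62.7% of the WT list, while C was 13.5% of the covered bases of each library over all transcripts. Errors at G made up 19.2% in E423P (8.51 to 37.9) and 15.7% in WT (9.89 to 24.0). Errors at T were the fewest, 1 in E423P and 7 in WT. Changes to T of any reference base made up 21 errors in E423P (80.8%) and 85 in WT (83.3%).

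**Figure D2:**
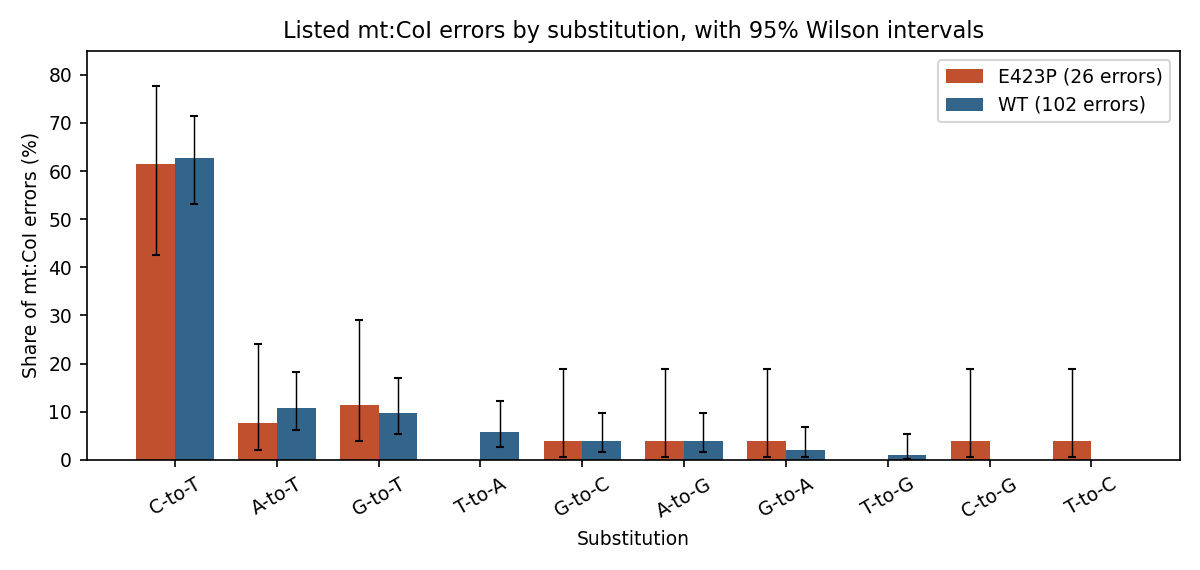
Share of the listed mt:CoI errors (y axis, %) for each substitution listed in either library (x axis), with E423P bars left of WT bars and 95% Wilson intervals as error bars, none being drawn at a count of 0. C-to-T was 61.5% in E423P and 62.7% in WT, and no other substitution exceeded 11.5%.

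G-to-T was listed 3 times in E423P (11.5%, 4.0 to 29.0) and 10 times in WT (9.80%, 5.41 to 17.1). A-to-T was listed 2 times in E423P and 11 times in WT. The remaining kinds were rare. G-to-C and A-to-G were each listed 1 time in E423P and 4 times in WT. G-to-A was listed 1 time in E423P and 2 times in WT. T-to-A was listed 0 times in E423P, which allows a share of up to 11.5% (3 errors of 26), and 6 times in WT (5.88%), so a lower share in E423P was not detectable at this number of errors. The E423P list held C392G and T134C, 1 error each, and WT mt:CoI had neither kind, which allows each up to 2.94% there. Of the WT list outside mt:CoI, 6 errors were T-to-C. Neither library had C-to-A or A-to-C in mt:CoI, with the same limits.

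The spectrum of mt:CoI was set against the other 8 transcripts in the same library. In E423P, C-to-T was 61.5% of the mt:CoI errors and 64.0% of the 25 errors elsewhere. In WT it was 62.7% of the mt:CoI errors and 55.6% of the 153 errors elsewhere. Neither difference passed the test, with adjusted p = 1.00 in E423P and 0.599 in WT (two-sided Fisher's exact test, Benjamini-Hochberg over the 2 libraries).

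By codon position, counting from 1, the E423P errors numbered 13 at the first, 10 at the second and 3 at the third base of codons. The WT errors numbered 36, 45 and 21. The third base held 11.5% of errors in E423P (4.0 to 29.0) and 20.6% in WT (13.9 to 29.4). This difference did not pass the test (two-sided Fisher's exact test, p = 0.403). Errors at G were on first or second bases alone in mt:CoI, 5 at the first base in E423P, and 10 at the first and 6 at the second base in WT. Errors at A in WT were mostly at the third base, 12 of 15. The numbering was chosen from the bases at these same listed positions. The placement of C, G and A errors by codon base is therefore not a separate result. In the transcripts other than mt:CoI the third base held 36.0% of the errors in E423P and 15.0% in WT. mt:CoI was 24.5 points below this in E423P and 5.56 points above it in WT, and neither difference passed the test (two-sided Fisher's exact test, adjusted p = 0.104 and 0.310 over the 2 libraries). Among C-to-T errors alone the E423P difference was -12.5 points (Fisher's exact test, adjusted p = 0.779). Counting from 0 instead would put 38.5% of the E423P errors and 44.1% of those in WT at the third base (Fisher's exact test, p = 0.662). The base composition of codon positions, which was used to settle the numbering, also sets how many C or G bases each position offers, so these shares are not rates.

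**Figure D3:**
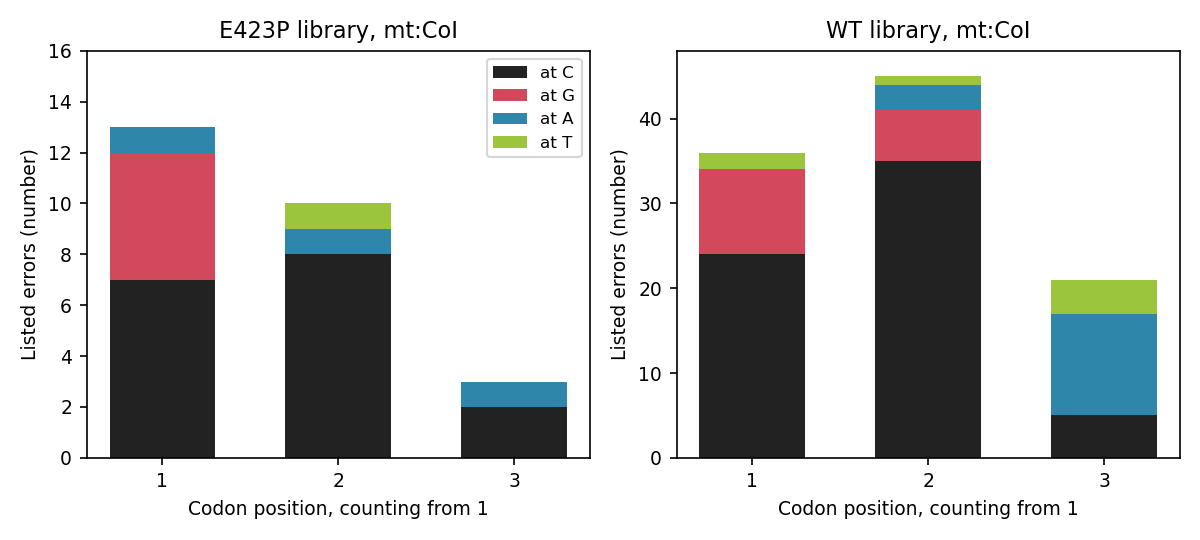
Number of listed mt:CoI errors (y axis) at each codon position (x axis, counting from 1), coloured by reference base, for E423P on the left and WT on the right on separate scales. The third base held 3 of 26 errors in E423P and 21 of 102 in WT.

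The C-to-T errors fell mainly on the first and second bases of codons. In E423P 7 of the 16 were at the first, 7 at the second and 2 at the third base. In WT 24 of the 64 were at the first, 35 at the second (54.7%, 42.6 to 66.3) and 5 at the third base (7.81%, 3.38 to 17.0). In the invertebrate mitochondrial code a C-to-T change at the third base never alters the amino acid, one at the second base always does, and one at the first base is silent only in some leucine codons. Each error was classed by the amino acids of all codons that fit the listed bases. These classes hold only if the inferred numbering is right. As that numbering was chosen from the bases at the same errors, the shares below are not a separate result either. In E423P at least 18 of 26 errors changed the amino acid (69.2%, 50.0 to 83.5), 3 kept it, and 5 could not be settled from the listed bases. In WT at least 65 of 102 changed it (63.7%, 54.1 to 72.4), 8 kept it, and 29 could not be settled.

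Counting from 1, some codons could be read in part because errors were listed at more than 1 of their bases. The amino acids named here hold only if this inferred numbering is right. Codons 220, 226 and 247 have C as their first and second bases and so encode proline. In E423P, C659T in codon 220 and C740T in codon 247 would each turn proline into leucine, with 1 error each. C676T in codon 226 and C739T in codon 247 would turn proline into serine, also with 1 error each in E423P. In WT all 6 of these C bases were listed. C658T, C676T and C739T would give serine, and C659T, C677T and C740T leucine. Codon 36 encodes arginine, and its WT error G107T would give leucine. Codon 357 encodes alanine, which C1070T would turn into valine in E423P and G1069C into proline in WT.

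Neighbouring bases were listed together in 3 pairs in E423P, at 392 and 393, 739 and 740, and 1445 and 1446. In WT there were 7 such pairs. The pairs at 739 and 740 and at 1445 and 1446 were in both libraries. Whether neighbouring errors came from the same molecules is not recorded. Position 1445 had 2 kinds of error in WT, A1445T and A1445G, 1 of each at a depth of 499.

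Most listed changes in mt:CoI had 1 error. A combination of position and substitution with 2 or more errors occurred 1 time among 25 in E423P (4.0%, 0.710 to 19.5) and 13 times among 86 in WT (15.1%, 9.05 to 24.2). Over all transcripts such combinations were 4.08% in E423P and 12.1% in WT. The mt:CoI share in E423P minus that in WT, -11.1 points, did not pass the test (two-sided Fisher's exact test, p = 0.185). Of the 13 repeated WT changes in mt:CoI 10 were C-to-T, against 51 of all 86 WT combinations in mt:CoI (59.3%). In the other transcripts 7 of 14 repeated WT changes were C-to-T. The depth at the 13 mt:CoI changes had a median of 515 in WT, against 362 at WT mt:CoI changes with 1 error. The part of depth in the repeats was not tested.

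The most repeated changes were in WT. C388T had 3 errors at a depth of 339, C1448T had 3 at 515 and C676T had 3 at 678. Counting from 1, these are mitochondrion_genome positions 1861, 2921 and 2149. C388T and C676T lie at a first and C1448T at a second codon base. E423P listed C676T with 1 error at a depth of 206, and it did not list C388T or C1448T. The nearest E423P entries to those were at positions 392 and 1446, at depths of 120 and 176. The 10 WT changes with 2 errors were at depths of 250 to 766. They included A129T, T697A and G1069C, the 3 repeated changes that were not C-to-T. In E423P the repeated change was C647T, with 2 errors at a depth of 257, or 0.778% (0.214 to 2.79). WT had 1 error there at a depth of 790, or 0.127% (0.0223 to 0.713). These intervals overlap, and the position was picked for its errors. C647T is at genome position 2120, a second codon base.

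The same change was listed in both libraries 10 times in mt:CoI, out of 13 such changes over all transcripts. That was 10 of the 25 mt:CoI combinations of E423P (40.0%, 23.4 to 59.3) and 10 of the 86 of WT (11.6%, 6.44 to 20.1). Over all transcripts the shared changes were 26.5% of the E423P combinations and 5.83% of the WT combinations. In the other 8 transcripts 3 of 24 E423P combinations were shared (12.5%, 4.34 to 31.0). The difference between mt:CoI and the other transcripts, 27.5 points, did not pass the threshold of 0.05 (two-sided Fisher's exact test, p = 0.0507). The E423P depth at shared mt:CoI changes had a median of 195 and that at mt:CoI changes in E423P alone 152. In the other transcripts it was 220.0 at the 3 shared changes and 127 at the unshared ones. The part of depth in the difference was not tested beyond the following. At E423P depths of 150 or more, 9 of 17 mt:CoI combinations and 3 of 10 others were shared, a difference of 22.9 points on fewer combinations (Fisher's exact test, p = 0.424). Among C-to-T combinations 9 of 15 and 3 of 15 were shared, a difference of 40.0 points (Fisher's exact test, p = 0.0604). Against mt:CoII and mt:CoIII alone the difference was 25.7 points (Fisher's exact test, p = 0.151). These 3 alternatives were chosen after the data were seen.

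The shared changes were 9 C-to-T changes and A1445T. Of the 10, 7 lay between positions 647 and 779: C647T, C659T, C676T, C712T, C739T, C740T and C779T. The other 3 were C124T, A1445T and C1446T. Apart from C647T in E423P, and C659T and C676T in WT, each had 1 error in each library. In E423P their share of the depth ran from 0.392% at C659T to 0.980% at C779T. In WT it ran from 0.127% at C647T to 0.455% at C779T. The E423P value was the higher at all 10, where 1 error weighs more at a lower depth, and the 95% Wilson intervals of the libraries overlapped at each. No mt:CoI change reached 1% of its depth in either library, with highest values of 0.980% at C779T in E423P and 0.952% at A201G in WT. Both were single errors at the lowest listed depth of their library, 102 and 105. At no listed mt:CoI depth could a single error reach 1%, so for such changes this follows from the depths.

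**Figure D4:**
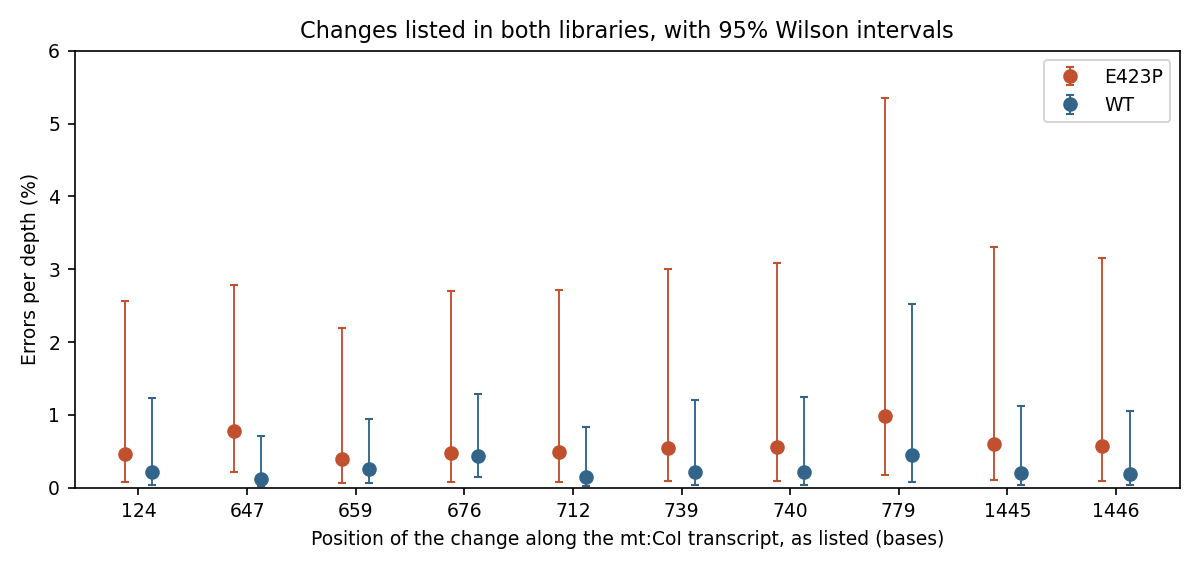
Errors as a percentage of the depth (y axis) at the 10 mt:CoI changes listed in both libraries, by position along the transcript (x axis, bases, not to scale), with E423P left of WT at each and 95% Wilson intervals as bars. E423P points lie between 0.392% and 0.980% and WT points between 0.127% and 0.455%, with overlapping intervals at every position.

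The part of the transcript up to its midpoint, position 768, held 16 of 26 E423P errors (61.5%, 42.5 to 77.6) and 61 of 102 WT errors (59.8%, 50.1 to 68.8). The difference, 1.73 points, did not pass the test (Fisher's exact test, two-sided, p = 1.00). Restricted to depths of 150 or more in E423P and 300 or more in WT, the shares were 55.6% in E423P and 66.7% in WT (Fisher's exact test, p = 0.416).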

How the data were processed

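Mitochondrial RNA of E423P and WT flies was harvested with Trizol, and the Illumina TruSeq RNA kit gave the libraries, per the labels' protocols. The submitters' processing notes name FastQC, cutadapt, Bowtie2 and SAMtools. The error caller, its filters, any consensus step, the strand convention and the genome build are not given in the sources used here. The error lists, as deposited by the authors, give, for a transcript position, a substitution, its count of errors and the depth. A position with several errors stands on as many lines, so each line was 1 error. The summed coverage counts were also deposited by the authors, 320614 for E423P and 1345044 for WT. The deposited gene table gave coordinates only: its 2 sample columns match no sample label, so the level of mt:CoI was not analysed here. The other 2 of the 4 samples were not analysed here.

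Symbols and coordinates came from Ensembl release 115 (BDGP6). No sequence was used. Shares carry 95% Wilson intervals, and 9 two-sided tests were made, all Fisher's exact test, with no adjustment other than the one given over the 2 libraries. Intervals cover counting error only, and they and the tests treat each listed error as a separate event. The lists carry no molecular identifiers, so whether repeated errors are copies of 1 molecule cannot be seen. Positions named were those with 2 or more errors or listed in both libraries, and the first and last of each list. A201G, C392G, T134C and the positions that mark peaks and troughs of depth were named after their values were seen. So were the neighbouring pairs, the part-read codons and the stretch from 647 to 779. The gene, the tests and the positions to name were chosen with earlier results of these data known. Fisher's exact test and the Wilson interval were checked on simulated independent errors at the 2 mt:CoI list sizes, 26 and 102. Repeated changes, shared changes and comparisons with other transcripts were not simulated. Python 3.11.15, numpy 2.4.6, scipy 1.17.1 and matplotlib 3.10.9 were used.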

Additional observations from a re-analysis of the deposited data

How the results depend on the processing

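None of the 9 results passed the threshold of 0.05 (Fisher's exact test, lowest p = 0.0507), nor did any of their 25 alternatives, where p ran from 0.0604 to 1.00. In 17 the direction also stayed. In 8 the sign of the difference turned, each time with p of 0.413 or more, and the cause was not tested. The E423P minus WT share of C-to-T, -1.21 points, became 0.698 with each change counted a single time, 12.9 at depths of 150 or more, and 2.40 without changes of 3 or more errors; without the shared changes it was -18.4 (Fisher's exact test, p = 0.262). The share at the third codon base, -9.05 points, became 4.69 among C-to-T errors and -5.66 with positions counted from 0. The share up to the midpoint, 1.73 points, became -3.97 without the shared changes, -0.827 at depths of 150 or more, and -11.1 with a depth of 150 or more in E423P and 300 or more in WT, the last chosen after seeing the data. In WT, mt:CoI minus the other transcripts at the third codon base, 5.56 points, became -1.60 among C-to-T errors, and in E423P -24.5 points became -12.5. The share of errors that keep the amino acid was not tested, as no sequence was used, and its alternatives were not run. No paired analysis was possible because the error lists are 1 per genotype, and no replicate could be left out. The 26 E423P errors limit what could be detected.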
